A study of Homo sapiens with 8 samples.

Results

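The control libraries of this study fell into 2 pairs, and the programs that set the pairs apart are described here. HCCLM3 is an established human line of hepatocellular carcinoma, known for spreading readily in animals. It gave 8 libraries of poly(A)-selected RNA, of which 4 are treated here as NC-1 with NC-2 against NC-3 with NC-4. All 4 are named NC and carry the genotype WT in the labels. The other 4 are named siRNA: their cells were transiently transfected to knock down circPTK2, a circular RNA of the PTK2 gene, and they serve only as a level to read the NC values against. The labels do not expand NC, do not say whether NC cells received a control siRNA, and give no day, passage or culture for any library. The cells of all 8 libraries share 1 line and 1 culture medium (DMEM with 10% fetal bovine serum).

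The pairs were chosen from correlations of these same libraries over all genes, so every gene of the contrast had already been used to choose them. The differences are therefore given as descriptions, with no test. A difference is the mean log2(value + 1) of NC-1 and NC-2 minus that of NC-3 and NC-4, where the value is the deposited normalized read signal of a gene. Fold values are ratios of the pair means of the deposited values. A gene is called apart where both libraries of one pair lay above both of the other and the difference was at least 1 on the log2 scale, which is 2-fold. A library of a pair is not known to be a separate culture, so the spread within a pair may be technical. In bulk RNA, fewer cells of a kind and less RNA per cell cannot be told apart.

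Reads recovered on the listed genes numbered 38728098 and 40249129 in NC-1 and NC-2, 43512175 and 37087203 in NC-3 and NC-4, and 28077305 to 32532669 in the siRNA libraries. In the NC libraries 1 read was worth 0.0217 to 0.0269 of the deposited value, and reads are given beside genes near 0. A gene enters the table only if it was above 1 in at least 3 libraries, so one present in a single NC pair but in none of the siRNA libraries could not appear. Spearman correlations across genes were 0.985 within NC-1 and NC-2, 0.987 within NC-3 and NC-4, 0.919 to 0.938 between the pairs and 0.99 to 0.995 among the siRNA libraries. PTK2, the host gene of the targeted circular RNA, was at 178 and 227 in NC-1 and NC-2, against 175 and 161 in NC-3 and NC-4, and at 204 to 219 in the siRNA libraries. These values measure the linear mRNA only.

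Several programs named below are well studied. When amino acids run short or the endoplasmic reticulum is strained, kinases phosphorylate the translation factor eIF2, bulk translation slows, and the transcription factor ATF4 is made and switches on genes for amino acid synthesis, transport and tRNA charging through CARE elements. Falling membrane sterol releases SREBP factors, which induce cholesterol and fatty acid synthesis. E2F factors drive DNA replication genes at the G1/S transition, and the DREAM complex acts through E2F and CHR elements on S-phase and mitotic genes. ERK signalling induces immediate early transcription factors within minutes, along with phosphatases and adaptors that restrain the pathway. The mitochondrial genome encodes 13 respiratory chain subunits and is transcribed apart from the nucleus.

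Because the lists that set the pairs apart are known for shared promoter elements, promoters were searched for 6 motifs on both strands, in the 250 bases before to 50 bases after each start (RefSeq, GRCh38.p14). Promoters were matched for 9729 of 11812 genes, and matches of different motifs overlapped in 11 of them. The CARE-like motif TGATGNAA was present in 1.69% of all promoters, 4.08% of those of genes apart higher and 1.72% of those apart lower. It was found in 3 of 22 promoters of the amino acid stress list, 3 of 15 of amino acid synthesis, 3 of 14 of amino acid transport and 5 of 12 of cytosolic tRNA synthetases. The promoters of ASNS and CHAC1, which mark the difference between the pairs, and windows of 5 other genes that were at least 2-fold higher in NC-1 and NC-2 are shown 5′ to 3′ with this motif in capitals.
ASNS, chr7:97872359-97872658, minus strand: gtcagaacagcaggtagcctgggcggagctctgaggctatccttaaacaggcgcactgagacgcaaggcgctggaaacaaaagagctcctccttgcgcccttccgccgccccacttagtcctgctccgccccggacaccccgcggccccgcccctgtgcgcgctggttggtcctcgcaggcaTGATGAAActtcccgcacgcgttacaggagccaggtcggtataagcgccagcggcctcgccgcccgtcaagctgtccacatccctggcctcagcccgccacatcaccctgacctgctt
CHAC1, chr15:40953221-40953520, plus strand: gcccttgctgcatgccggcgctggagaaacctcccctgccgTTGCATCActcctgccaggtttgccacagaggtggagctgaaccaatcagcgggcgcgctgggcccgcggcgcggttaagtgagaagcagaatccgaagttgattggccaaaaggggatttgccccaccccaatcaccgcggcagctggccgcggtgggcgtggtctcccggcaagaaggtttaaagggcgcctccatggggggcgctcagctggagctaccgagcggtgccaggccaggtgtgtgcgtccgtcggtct
ATF3, chr1:212565196-212565243, plus strand: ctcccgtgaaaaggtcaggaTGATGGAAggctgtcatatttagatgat
SLC7A1, chr13:29595654-29595701, minus strand: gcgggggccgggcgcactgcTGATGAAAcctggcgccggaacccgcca
GOT1, chr10:99430795-99430842, minus strand: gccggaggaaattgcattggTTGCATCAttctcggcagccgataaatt
CARS, chr11:3057398-3057445, minus strand: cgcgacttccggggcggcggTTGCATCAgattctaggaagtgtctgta
TARS, chr5:33440947-33440994, plus strand: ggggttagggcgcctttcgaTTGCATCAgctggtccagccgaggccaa
On the lower side, the E2F motif TTTCCCGC was present in 2.67% of all promoters. Among genes apart it was in 4.02% of those lower and 1.79% of those higher. In the G1/S and replication list it was in 10 of 44 (22.7%). The CHR motif TTTGAA was present in 9.65% of all, 14.2% of those apart lower and 9.62% of those apart higher. In the G2/M list it was in 25 of 37 (67.6%). Windows around the first match are shown for 5 replication genes and 3 mitotic genes, all at least 2-fold lower in NC-1 and NC-2, again with the motif in capitals.
UHRF1, chr19:4909467-4909514, plus strand: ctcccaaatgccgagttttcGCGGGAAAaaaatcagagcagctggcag
MCM3, chr6:52284889-52284936, minus strand: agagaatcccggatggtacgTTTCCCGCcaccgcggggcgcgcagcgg
GINS2, chr16:85688958-85689005, minus strand: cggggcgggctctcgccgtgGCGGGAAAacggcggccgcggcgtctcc
RFC3, chr13:33818074-33818121, plus strand: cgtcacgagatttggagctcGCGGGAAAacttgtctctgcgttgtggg
PCNA, chr20:5126654-5126701, minus strand: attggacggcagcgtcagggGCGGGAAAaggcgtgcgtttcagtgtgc
DLGAP5, chr14:55191698-55191743, minus strand: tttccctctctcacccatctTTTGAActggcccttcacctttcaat
CDC20, chr1:43358783-43358828, plus strand: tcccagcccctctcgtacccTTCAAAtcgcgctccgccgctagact
TOP2A, chr17:40418065-40418110, minus strand: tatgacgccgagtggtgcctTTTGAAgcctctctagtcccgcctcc
The sterol regulatory motif TCACNCCAC, present in 1.03% of all promoters, was in 1 of 23 of the sterol list, that of SREBF2. The CCAAT motif, which binds NF-Y, a partner of SREBP2, was in 36.9% of all and in 18 of 23 (78.3%) of the sterol list. It was not particular to sterol genes. It was also in 26 of 37 (70.3%) of the G2/M list, 12 of 22 (54.5%) of amino acid stress and 48.5% of promoters of genes apart lower. In amino acid transport it was in 3 of 14. No promoter of the sterol list holds more CCAAT matches than the 5 in that of MVK. MVK phosphorylates mevalonate and lies head to head with MMAB, and the matches are shown in capitals.
MVK, chr12:109573544-109573843, plus strand: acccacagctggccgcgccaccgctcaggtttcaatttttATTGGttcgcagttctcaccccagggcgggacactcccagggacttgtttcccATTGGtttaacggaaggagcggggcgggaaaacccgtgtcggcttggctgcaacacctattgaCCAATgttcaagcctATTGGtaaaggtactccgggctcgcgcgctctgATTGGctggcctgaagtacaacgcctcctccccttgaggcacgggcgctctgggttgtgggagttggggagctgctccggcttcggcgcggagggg
The ETS motif CCGGAAG was in 20.2% of all promoters and in 1 of 36 (2.78%) of the ERK list. The sequences shown are of genes that differed at least 2-fold. Other carriers differed less, among them MCM7 (-0.67) and GINS3 (0.38) for E2F and CDK1 (-0.25) for CHR. The share of a list depends on which genes were listed and not on their differences between the pairs. A match is a description of letters and shows no binding in these cells, and the elements can also lie outside this window.

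Of 11812 genes, 1426 (12.1%) were apart, 776 (6.57%) higher and 650 (5.5%) lower in NC-1 and NC-2. Each count of list members apart is to be read beside these shares. Pair values did not overlap for 8348 genes (70.7%). The same split of the siRNA libraries, replicates 1 and 2 against 3 and 4, gave no overlap for 3022 genes higher and 3180 lower. Single libraries within a pair differed at least 2-fold for 197 genes (1.67%) between NC-1 and NC-2 and for 140 genes (1.19%) between NC-3 and NC-4. As a measure in libraries that the choice of pairs did not use, siRNA replicates 1 and 2 against 3 and 4 put 25 genes (0.212%) apart. The median absolute difference was 0.38 between the NC pairs and 0.19 and 0.17 within them. It was 0.12 between siRNA replicates 1 and 2 and 3 and 4. The values within pairs are differences of single libraries and the others of means of 2 libraries, so the measures are unlike. Large differences lay mostly on the higher side: 126 genes were at least 4-fold higher and 33 at least 4-fold lower, and 30 genes were at least 8-fold higher and 2 at least 8-fold lower. Scaled by library totals alone, which moved the median of all genes to -0.20, 566 genes were higher and 1021 lower.

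**Figure D1:**
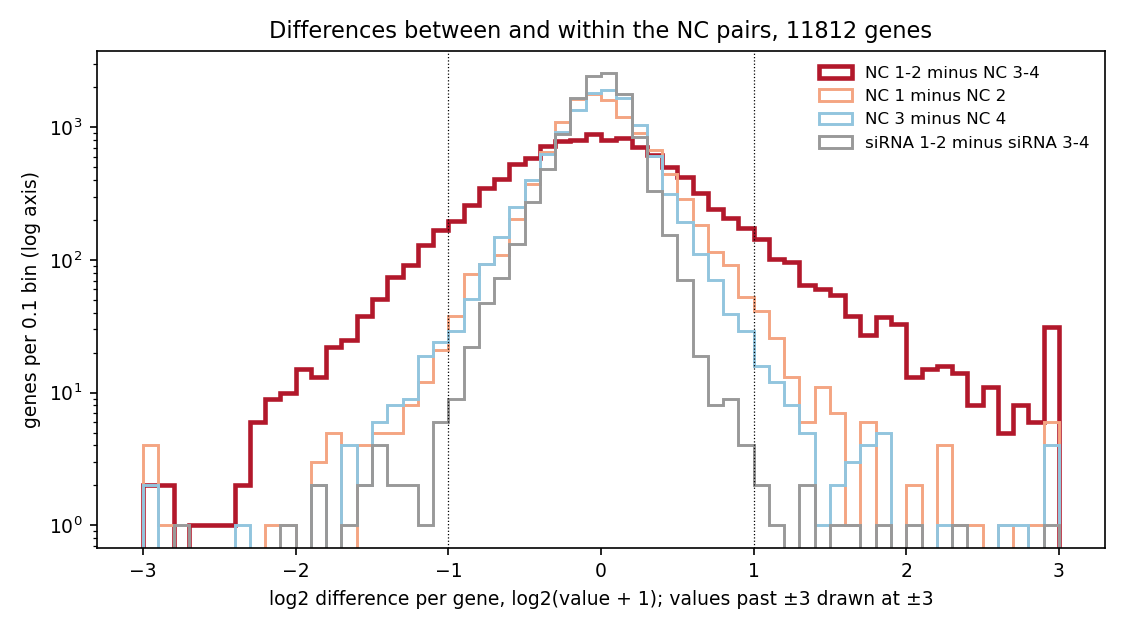
Genes per 0.1-wide bin (log axis) against the log2 difference on log2(value + 1), for NC-1 and NC-2 minus NC-3 and NC-4, for the differences within each NC pair, and for siRNA replicates 1 and 2 minus 3 and 4; dotted lines mark 2-fold, and values past 3 in size are drawn at 3. The curves within pairs compare single libraries, and the others compare means of 2 libraries. The NC pair curve is the widest. Its right tail, with 126 genes at 4-fold or more, holds more genes than its left tail with 33.

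The siRNA level helps to place the pairs. Of the 776 genes higher in NC-1 and NC-2, the siRNA mean lay between the pairs for 499, above both for 185 and below both for 92. Of the 650 genes lower in NC-1 and NC-2 it lay between the pairs for 330, above both for 86 and below both for 234, and over all 11812 genes it lay between for 3438. It was nearer to NC-1 and NC-2 for 490 of the 776 genes and for 442 of the 650 lower ones, against 6716 of all 11812 genes. The majority was thus nearer to NC-1 and NC-2 in both directions, as it was over all genes. The siRNA libraries also differ from NC in their treatment, so this nearness is a position on a scale only.

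BEST1, a chloride channel gene, had the largest difference, with 269.9 and 230.0 in NC-1 and NC-2, against 5.396 and 3.96 in NC-3 and NC-4 (53.4-fold). It overlaps FTH1, ferritin heavy chain, on the opposite strand, and use of strand in counting is not given in the sources used here, so its value is uncertain. FTH1 itself was at 3231 and 3971 in NC-1 and NC-2, against 2524 and 2632 in NC-3 and NC-4. In the siRNA libraries FTH1 was at 4109 to 5003 while BEST1 was at 1.99 to 6.13, so the 2 genes did not move together across libraries. IGFBP1, a secreted binding protein for insulin-like growth factors made by liver and known to rise on amino acid shortage, was at 225 and 362 in NC-1 and NC-2, against 9.32 and 3.72 in NC-3 and NC-4, with 29.8 to 47.3 in the siRNA libraries. FAM129A (Niban) was at 57.9 and 53.5 in NC-1 and NC-2, against 1.76 and 0.837 in NC-3 and NC-4. ADM2, a secreted peptide of the calcitonin family, was at 47.9 and 57.04 in NC-1 and NC-2, against 1.19 and 1.18 in NC-3 and NC-4, and at 20.7 to 26.5 in the siRNA libraries. In all 4 genes the lower library of NC-1 and NC-2 lay far above the higher one of NC-3 and NC-4.

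UNC5B, a netrin receptor at chromosome 10 from 71212570 to 71302864 on the plus strand (GRCh38), was at 24.4 and 29.7 in NC-1 and NC-2, against 0.325 and 0.443 in NC-3 and NC-4, and at 8.904 to 9.94 in the siRNA libraries. The reads of UNC5B were 928 and 1102 in NC-1 and NC-2, against 15 and 18 in NC-3 and NC-4. CHAC1, a glutathione-degrading enzyme at chromosome 15 from 40952962 to 40956519 on the plus strand, was at 27.2 and 38.2 in NC-1 and NC-2, against 0.7801 and 0.566 in NC-3 and NC-4, and at 11.01 to 17.1 in the siRNA libraries. Its reads were 1033 and 1421 in NC-1 and NC-2, against 36 and 23 in NC-3 and NC-4. Both genes were thus near absent in NC-3 and NC-4 and plain in the other 6 libraries. ALOXE3, a lipoxygenase gene, was likewise under 1 in NC-3 and NC-4, at 10.7 and 16.7 in NC-1 and NC-2 against 0.9102 and 0.443 in NC-3 and NC-4, with 14.98 to 16.9 in the siRNA libraries. TMOD2, a tropomodulin gene, differed from these 3: it was at 14.5 and 15.1 in NC-1 and NC-2 against 0.325 and 0.517 in NC-3 and NC-4, and at 0.423 to 1.41 in the siRNA libraries, so NC-1 and NC-2 alone expressed it at 10 or more. No gene was under 1 in NC-1 and NC-2 and at 10 or more in both others.

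Among the largest differences on the lower side, EHF, an epithelial ETS transcription factor, was at 3.31 and 2.37 in NC-1 and NC-2, against 26.98 and 32.8 in NC-3 and NC-4 (10.5-fold lower), and at 5.41 to 11.5 in the siRNA libraries. CDKN2C, the CDK4/6 inhibitor p18, was at 2.55 and 1.88 in NC-1 and NC-2, against 23.3 and 26.2 in NC-3 and NC-4, and at 1.01 to 1.97 in the siRNA libraries, as low as in NC-1 and NC-2. BRI3BP was at 18.6 and 22.01 in NC-1 and NC-2, against 125 and 114 in NC-3 and NC-4. FAM111B was at 8.21 and 4.84 in NC-1 and NC-2, against 48.7 and 41.5 in NC-3 and NC-4. SUOX, sulfite oxidase, was at 3.76 and 4.55 in NC-1 and NC-2, against 25.9 and 28.4 in NC-3 and NC-4. TMEM97, the sigma-2 receptor and a sterol-responsive gene, was at 19.6 and 15.4 in NC-1 and NC-2, against 97.3 and 91.5 in NC-3 and NC-4. FHOD1, a formin that builds actin filaments, was at 3.63 and 4.28 in NC-1 and NC-2, against 26.5 and 19.4 in NC-3 and NC-4. The centrosomal gene LRRC45 was at 7.63 and 4.68 in NC-1 and NC-2, against 30.2 and 36.1 in NC-3 and NC-4. FAM198B had a wide spread within both pairs, at 34.3 and 5.44 in NC-1 and NC-2, against 71.5 and 173 in NC-3 and NC-4, and its difference of -2.9 was -1.67 without NC-2. BIVM-ERCC5, a readthrough of 2 neighbouring genes whose reads can be split, was listed at 0 in NC-1 and in at least 1 siRNA library and is uncertain. The remaining genes among the 12 largest on each side are described with their programs. Besides the genes named by rule, list members were added below for their role in a pathway, and these were chosen after their values were seen. Several named genes overlap another gene of the table, among them MVK with MMAB, MARS with DDIT3, TYMS with ENOSF1, KIF20A with CDC23 and MAP1LC3B with FBXO31, and their values carry the same uncertainty as that of BEST1.

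Amino acid stress genes had the largest median difference of the lists with measured members. All 27 measured members of 29 listed were higher in both NC-1 and NC-2 than in NC-3 and NC-4, against 33.1% of all genes. Of the 27, 24 were apart, with none the other way, against 6.57% of all genes. The median difference was 2.2, beside -0.04 over all genes. The list's level, the median of log2 values centred on each gene's NC mean, was 1.07 and 1.13 in NC-1 and NC-2, -1.12 and -1.17 in NC-3 and NC-4, and 0.31 to 0.52 in the siRNA libraries. The siRNA mean lay between the pairs for 20 of the 27 members.

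**Figure D2:**
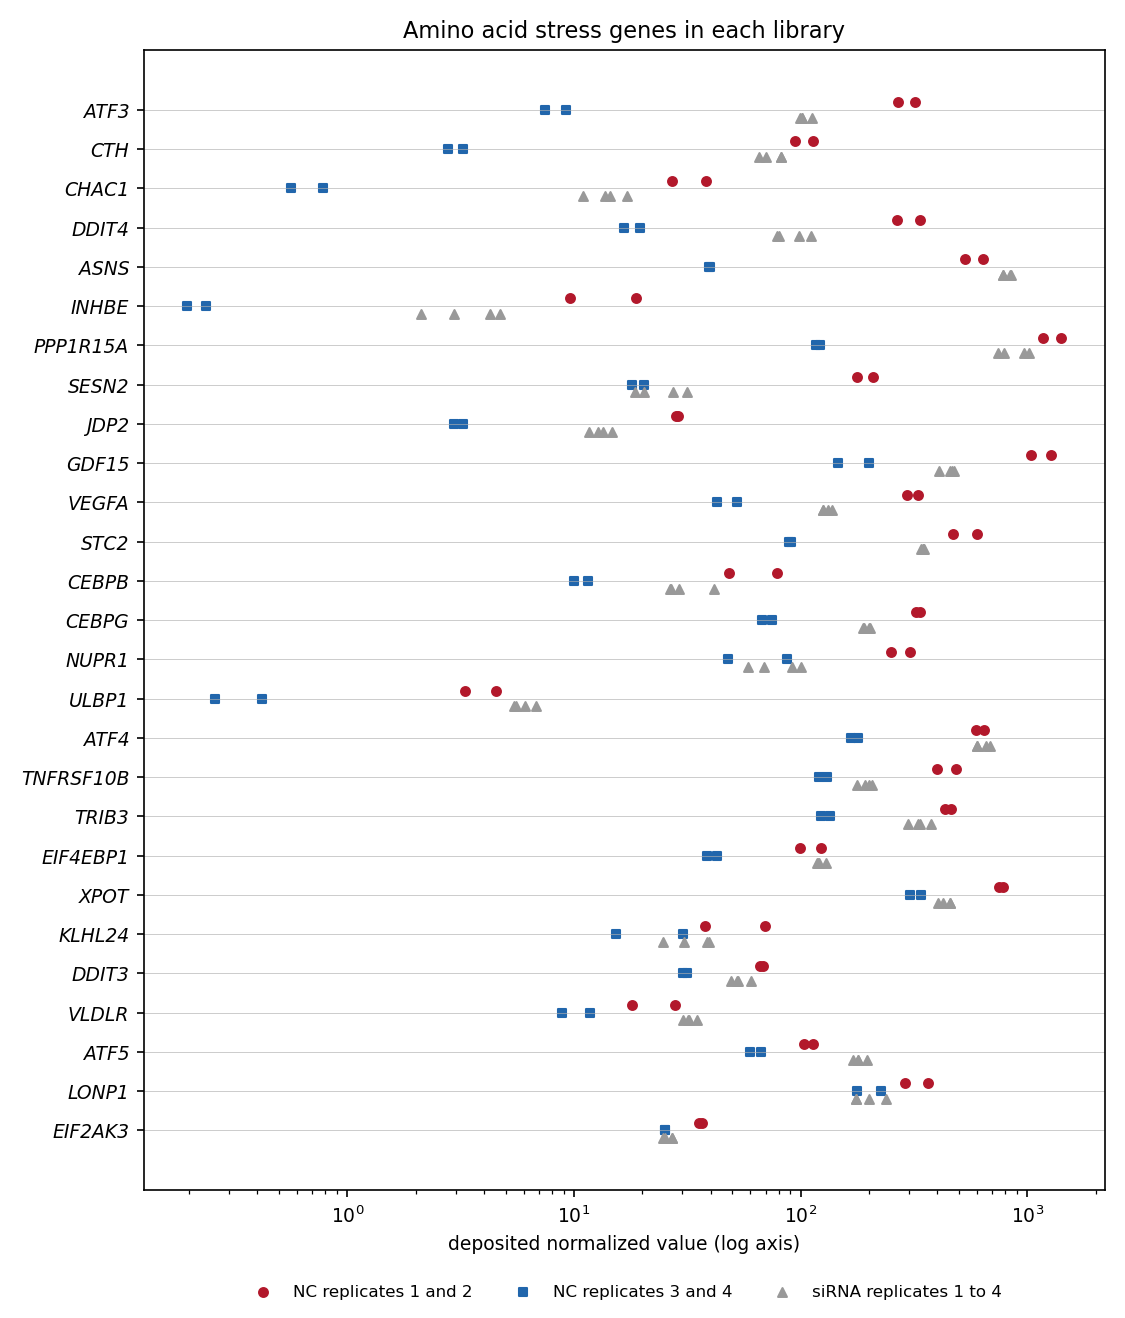
Deposited normalized value (log axis) of the 27 amino acid stress genes in each of the 8 libraries, with genes ordered by the difference between the NC pairs. Points of NC-1 and NC-2 lie to the right of those of NC-3 and NC-4 in every row, from ATF3 (4.99 on the log2 scale) to EIF2AK3 (0.50).

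Its transcription factors were led by ATF3, a repressor induced by ATF4, at 318 and 269 in NC-1 and NC-2, against 7.41 and 9.21 in NC-3 and NC-4, and at 99.2 to 112 in the siRNA libraries. ATF4 itself, the central factor, was at 596 and 646 in NC-1 and NC-2, against 179 and 166 in NC-3 and NC-4 (3.603-fold), with the siRNA libraries at 599 to 685, level with NC-1 and NC-2. CEBPG, a dimer partner of ATF4, was at 324 and 337 in NC-1 and NC-2, against 74.3 and 67.5 in NC-3 and NC-4. CEBPB, which also joins ATF4, was at 48.4 and 78.9 in NC-1 and NC-2, against 11.6 and 10.04 in NC-3 and NC-4. NUPR1, a stress-induced chromatin protein, was at 303 and 251 in NC-1 and NC-2, against 47.6 and 87.2 in NC-3 and NC-4. DDIT3, the pro-apoptotic factor CHOP, differed less, at 68.2 and 66.2 in NC-1 and NC-2, against 30.3 and 31.4 in NC-3 and NC-4, and its gene overlaps MARS on the opposite strand. ATF5 had the smallest difference of the 7 factors, 0.77, at 103 and 114 in NC-1 and NC-2, against 66.5 and 59.9 in NC-3 and NC-4, while the siRNA libraries stood above both pairs at 171 to 196. The order of the factors by difference was thus not the order of their level.

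Feedback and signalling genes had the largest median of the 4 roles, 3.05, and 9 of 10 were apart. DDIT4, an inhibitor of mTORC1, was at 267 and 337 in NC-1 and NC-2, against 16.6 and 19.6 in NC-3 and NC-4. SESN2, which lowers mTORC1 activity when leucine is absent, was at 177 and 207 in NC-1 and NC-2, against 20.4 and 18.04 in NC-3 and NC-4. SESN2 was at 18.6 to 31.5 in the siRNA libraries, close to NC-3 and NC-4, whereas DDIT4 was at 78.9 to 111, between the pairs. PPP1R15A, the GADD34 subunit that brings a phosphatase to eIF2, was at 1178 and 1408 in NC-1 and NC-2, against 122 and 116 in NC-3 and NC-4. TRIB3, an ATF4 target that represses ATF4, was at 462 and 432 in NC-1 and NC-2, against 123 and 134 in NC-3 and NC-4. INHBE, a hepatokine, was at 18.8 and 9.63 in NC-1 and NC-2, against 0.238 and 0.197 in NC-3 and NC-4. JDP2, a bZIP repressor, was at 28.7 and 28.2 in NC-1 and NC-2, against 2.95 and 3.25 in NC-3 and NC-4. EIF4EBP1, which holds back the cap-binding factor, was at 99.6 and 123 in NC-1 and NC-2, against 42.7 and 38.7 in NC-3 and NC-4. KLHL24 was spread within both pairs, at 69.6 and 37.8 in NC-1 and NC-2, against 15.3 and 30.3 in NC-3 and NC-4, and its difference was 0.78 without NC-1 and 0.74 without NC-3. EIF2AK3, the eIF2 kinase PERK, was the member of this role that was not apart, at 35.5 and 36.6 in NC-1 and NC-2, against 25.1 and 25.3 in NC-3 and NC-4 (difference 0.5).

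Secreted and surface members were apart in 5 of 5 cases. GDF15, a stress hormone that lowers appetite, was at 1038 and 1269.5 in NC-1 and NC-2, against 201 and 146 in NC-3 and NC-4. VEGFA, the angiogenic growth factor, was at 295 and 331 in NC-1 and NC-2, against 52.3 and 42.5 in NC-3 and NC-4. STC2, a stanniocalcin, was at 469.8 and 599.9 in NC-1 and NC-2, against 90.3 and 88.7 in NC-3 and NC-4. TNFRSF10B, the death receptor DR5, was at 399 and 485 in NC-1 and NC-2, against 130.2 and 120.3 in NC-3 and NC-4. VLDLR was at 18.1 and 27.8 in NC-1 and NC-2, against 11.8 and 8.89 in NC-3 and NC-4, and its difference was 0.76 without NC-2 and 0.88 without NC-4. The median level of the secreted and surface genes in the siRNA libraries, 0.04 to 0.17 on the centred log2 scale, lay between those of the pairs. Of the metabolic targets, ASNS, which makes asparagine, was at 531 and 637 in NC-1 and NC-2, against 39.6 and 39.4 in NC-3 and NC-4 (14.8-fold), and at 781 to 844 in the siRNA libraries. ASNS lies at chromosome 7 from 97852118 to 97872542 on the minus strand. NC-3 and NC-4, with nearly equal values, stood apart from the other 6 libraries for this gene. CTH, which makes cysteine, was at 94.2 and 113 in NC-1 and NC-2, against 2.77 and 3.25 in NC-3 and NC-4 (34.4-fold). ULBP1, a ligand of natural killer cells, was at 3.31 and 4.55 in NC-1 and NC-2, against 0.2600 and 0.418 in NC-3 and NC-4. XPOT, the tRNA exporter, was at 746 and 778 in NC-1 and NC-2, against 338 and 304 in NC-3 and NC-4. The protease gene LONP1 was not apart, with a difference of 0.7. FGF21 and RAB39B are not analysed here.

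Amino acid synthesis genes were apart in both directions. Of 21 measured members of 23, 10 were apart higher and 2 lower, against 6.57% and 5.5% of all genes. The median of 0.32 was 0.79 without NC-3, 0.82 with a pseudocount of 0.1 and 1.25 for members with no overlapping gene. In the serine branch PSAT1 was at 649 and 718 in NC-1 and NC-2, against 120.0 and 123 in NC-3 and NC-4. PSPH, the phosphatase that yields serine, was at 142 and 112 in NC-1 and NC-2, against 37.9 and 72.6 in NC-3 and NC-4, and its difference was 0.79 without NC-3. SHMT2, the mitochondrial enzyme that turns serine into glycine, was at 398 and 437 in NC-1 and NC-2, against 180.5 and 182 in NC-3 and NC-4. SHMT1, its cytosolic counterpart, went the other way, at 22.6 and 16.2 in NC-1 and NC-2, against 64.2 and 69.96 in NC-3 and NC-4. PHGDH, the first enzyme of the branch, was at 7.97 and 8.798 in NC-1 and NC-2, against 1.495 and 1.38 in NC-3 and NC-4, low in all 4 NC libraries beside 132 to 139 in the siRNA libraries. Among folate enzymes the mitochondrial members ALDH1L2 (51.2 and 44.02 in NC-1 and NC-2, against 3.38 and 3.18 in NC-3 and NC-4) and MTHFD1L (74.8 and 79.3 in NC-1 and NC-2 against 31.03 and 32.5 in NC-3 and NC-4) were higher. TYMS, thymidylate synthase, was lower, at 46.00 and 27.8 in NC-1 and NC-2 against 96.3 and 77.00 in NC-3 and NC-4, with a difference of -0.89 without NC-2. MTHFD1, a trifunctional folate enzyme, was at 110.1 and 98.9 in NC-1 and NC-2 against 163 and 163 in NC-3 and NC-4 and not apart. CBS, which feeds CTH, was at 98.3 and 107 in NC-1 and NC-2, against 9.600 and 9.11 in NC-3 and NC-4. GOT1, an aspartate transaminase, was at 155 and 199 in NC-1 and NC-2, against 38.7 and 38.6 in NC-3 and NC-4. GPT2, an alanine transaminase, was at 159 and 157 in NC-1 and NC-2, against 34.9 and 47.02 in NC-3 and NC-4. None of the 4 proline and arginine genes was apart.

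Among 17 amino acid transporters, 8 were apart higher and 1 lower, against 6.57% and 5.5% of all genes, with a median of 0.98. SLC6A9, a glycine transporter, was at 69.6 and 72.5 in NC-1 and NC-2, against 5.85 and 7.16 in NC-3 and NC-4. SLC1A4, which carries alanine, serine and cysteine, was at 186 and 209.6 in NC-1 and NC-2, against 22.8 and 23.2 in NC-3 and NC-4. SLC7A1, an arginine carrier, was at 188 and 234 in NC-1 and NC-2, against 39.9 and 25.9 in NC-3 and NC-4. The NC-3 and NC-4 values of these 3 genes were low. The cystine exchanger SLC7A11 was at 846 and 1177 in NC-1 and NC-2, against 492 and 357 in NC-3 and NC-4. Its heavy chain SLC3A2 was at 1376 and 1772 in NC-1 and NC-2, against 553 and 484 in NC-3 and NC-4. The glutamine carriers SLC38A2 (1562 and 1736 in NC-1 and NC-2 against 483 and 482 in NC-3 and NC-4) and SLC38A1 (1302 and 1477 in NC-1 and NC-2 against 589.6 and 535 in NC-3 and NC-4) were high in every library and still apart. SLC7A5, the leucine exchanger, was just under the threshold, at 1139.8 and 1411 in NC-1 and NC-2, against 641 and 640.3 in NC-3 and NC-4 (difference 0.98). SLC43A2, a facilitated carrier of large neutral amino acids, was lower, at 46.5 and 38.6 in NC-1 and NC-2, against 100.1 and 92.8 in NC-3 and NC-4.

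Cytosolic tRNA synthetases differed from enzyme to enzyme: 8 of 20 were apart higher and 1 lower, against 6.57% and 5.5% of all genes. GARS, the glycine enzyme, was at 667 and 799.7 in NC-1 and NC-2, against 181 and 154 in NC-3 and NC-4. SARS, for serine, was at 291 and 302 in NC-1 and NC-2, against 87.4 and 81.3 in NC-3 and NC-4. CARS, for cysteine, was at 219 and 234 in NC-1 and NC-2, against 76.1 and 71.6 in NC-3 and NC-4. YARS, for tyrosine, was at 344 and 383 in NC-1 and NC-2, against 130.4 and 116 in NC-3 and NC-4. In all 4 the libraries of a pair were close together and the pairs did not overlap. MARS (methionine), WARS (tryptophan), TARS (threonine) and EPRS (glutamate and proline) were also apart, with differences of 1.6, 1.57, 1.39 and 1.26. QARS (glutamine) was the enzyme apart on the lower side, at 42.6 and 26.8 in NC-1 and NC-2, against 66.2 and 72.4 in NC-3 and NC-4, and its difference was -0.69 without NC-2 and -0.95 without NC-4. HARS, for histidine, was at 44.2 and 42.1 in NC-1 and NC-2, against 71.4 and 70.6 in NC-3 and NC-4. LARS, for leucine, was at 142 and 141 in NC-1 and NC-2, against 151 and 138 in NC-3 and NC-4, with no separation. The mitochondrial synthetases had the opposite sign: 0 of 17 were apart higher and 3 lower, with a median of -0.56. FARS2 and EARS2 were among the 3, with differences of -1.2 and -1.19, that of FARS2 being -0.92 without NC-2.

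Sterol genes were lower in NC-1 and NC-2. Of 30 members, 18 were apart lower and 1 higher, against 5.5% and 6.57% of all genes, with a median of -1.26. All 20 synthesis genes were lower in both libraries of the pair, against 37.6% of all genes, and 16 of them were apart. The list's level was -0.55 and -0.62 in NC-1 and NC-2, 0.68 and 0.56 in NC-3 and NC-4, and -0.72 to -0.65 in the siRNA libraries, so that NC-3 and NC-4 stood alone. At the top of the pathway, ACAT2, which joins acetyl-CoA units, was at 21.1 and 19.4 in NC-1 and NC-2, against 111 and 91.2 in NC-3 and NC-4 (4.98-fold lower), although it overlaps TCP1 on the opposite strand, and TCP1 was at 187 and 202 in NC-1 and NC-2 against 311 and 266 in NC-3 and NC-4, not apart. HMGCS1, an enzyme on the way to mevalonate, was at 48.8 and 47.1 in NC-1 and NC-2, against 103 and 67.5 in NC-3 and NC-4. In the mevalonate arm MVK was at 7.86 and 9.87 in NC-1 and NC-2, against 56.6 and 36.6 in NC-3 and NC-4. MVD, the decarboxylase that follows, was at 13.9 and 11.5 in NC-1 and NC-2, against 55.9 and 60.8 in NC-3 and NC-4. IDI1, an isomerase, was at 47.02 and 47.8 in NC-1 and NC-2, against 159 and 125 in NC-3 and NC-4. FDPS, which makes farnesyl diphosphate, was at 162 and 159 in NC-1 and NC-2, against 343 and 327 in NC-3 and NC-4. Of these 4 genes MVK and MVD differed most.

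Further down, FDFT1, squalene synthase, was at 91.4 and 73.8 in NC-1 and NC-2, against 337 and 298 in NC-3 and NC-4. SQLE, the epoxidase that is a second control point, was at 77.3 and 79.8 in NC-1 and NC-2, against 286 and 225 in NC-3 and NC-4. LSS, which closes the sterol rings, was at 56.3 and 41.7 in NC-1 and NC-2, against 105 and 130.3 in NC-3 and NC-4. CYP51A1, the lanosterol demethylase, was at 59.5 and 54.6 in NC-1 and NC-2, against 158 and 134 in NC-3 and NC-4. MSMO1, a methyl sterol oxidase, was at 38.8 and 41.8 in NC-1 and NC-2, against 170.4 and 136 in NC-3 and NC-4. HSD17B7 was at 2.998 and 2.69 in NC-1 and NC-2, against 16.99 and 11.2 in NC-3 and NC-4. DHCR7, the last step of one branch, was at 86.4 and 81.1 in NC-1 and NC-2, against 276 and 262 in NC-3 and NC-4. In the siRNA libraries most synthesis genes were near NC-1 and NC-2, with SQLE at 84.8 to 97.8 and MSMO1 at 30.3 to 35.5. The synthesis genes not apart were HMGCS1, SC5D, TM7SF2 and PMVK, with differences of -0.79, -0.69, -0.54 and -0.43. Of the control genes, INSIG1, the sterol-induced anchor of SCAP and itself an SREBP target, was at 14.5 and 14.9 in NC-1 and NC-2, against 64.1 and 45.3 in NC-3 and NC-4, whereas SREBF2, the gene of the factor, was at 117 and 123 in NC-1 and NC-2 against 131 and 130.4 in NC-3 and NC-4 (difference -0.12).

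Uptake and transport genes were more mixed than synthesis genes, with 1 of 6 apart higher, 1 lower and a median of -0.55. STARD4, a sterol carrier, was at 4.84 and 7.45 in NC-1 and NC-2, against 25.7 and 17.5 in NC-3 and NC-4. NPC1, which exports cholesterol from lysosomes, was the member apart on the higher side, at 517 and 933 in NC-1 and NC-2, against 359.6 and 186 in NC-3 and NC-4, and its gene overlaps RMC1 on the opposite strand. Its difference was 0.99 without NC-2 and 0.95 without NC-4. ABCA1, the LXR-driven cholesterol exporter, was also higher, at 53.5 and 78.7 in NC-1 and NC-2, against 23.01 and 29.1 in NC-3 and NC-4, while NR1H3, the gene of LXR-alpha, was lower, at 7.78 and 5.92 in NC-1 and NC-2, against 21.8 and 20.9 in NC-3 and NC-4. In the fatty acid list 9 of 19 members were apart lower and none higher, against 5.5% and 6.57% of all genes. The median was -0.81. FASN was at 429 and 325 in NC-1 and NC-2, against 1144 and 1324 in NC-3 and NC-4. ACACA, which makes malonyl-CoA, was at 82.6 and 61.1 in NC-1 and NC-2, against 218 and 298 in NC-3 and NC-4. SCD, the stearoyl-CoA desaturase, was at 506 and 363 in NC-1 and NC-2, against 1045 and 1249 in NC-3 and NC-4. ACLY, which supplies cytosolic acetyl-CoA, was at 216 and 253 in NC-1 and NC-2, against 570.1 and 508 in NC-3 and NC-4. SREBF1, the gene of the factor for this branch, was at 133 and 129 in NC-1 and NC-2 against 103 and 141 in NC-3 and NC-4, and its pair values overlapped. For FASN and ACACA the siRNA libraries lay between the pairs, at 539 to 585 and 173 to 195. Over the 19 members of the list, the siRNA mean lay between the pairs for 4, below both for 9 and above both for 6.

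**Figure D3:**
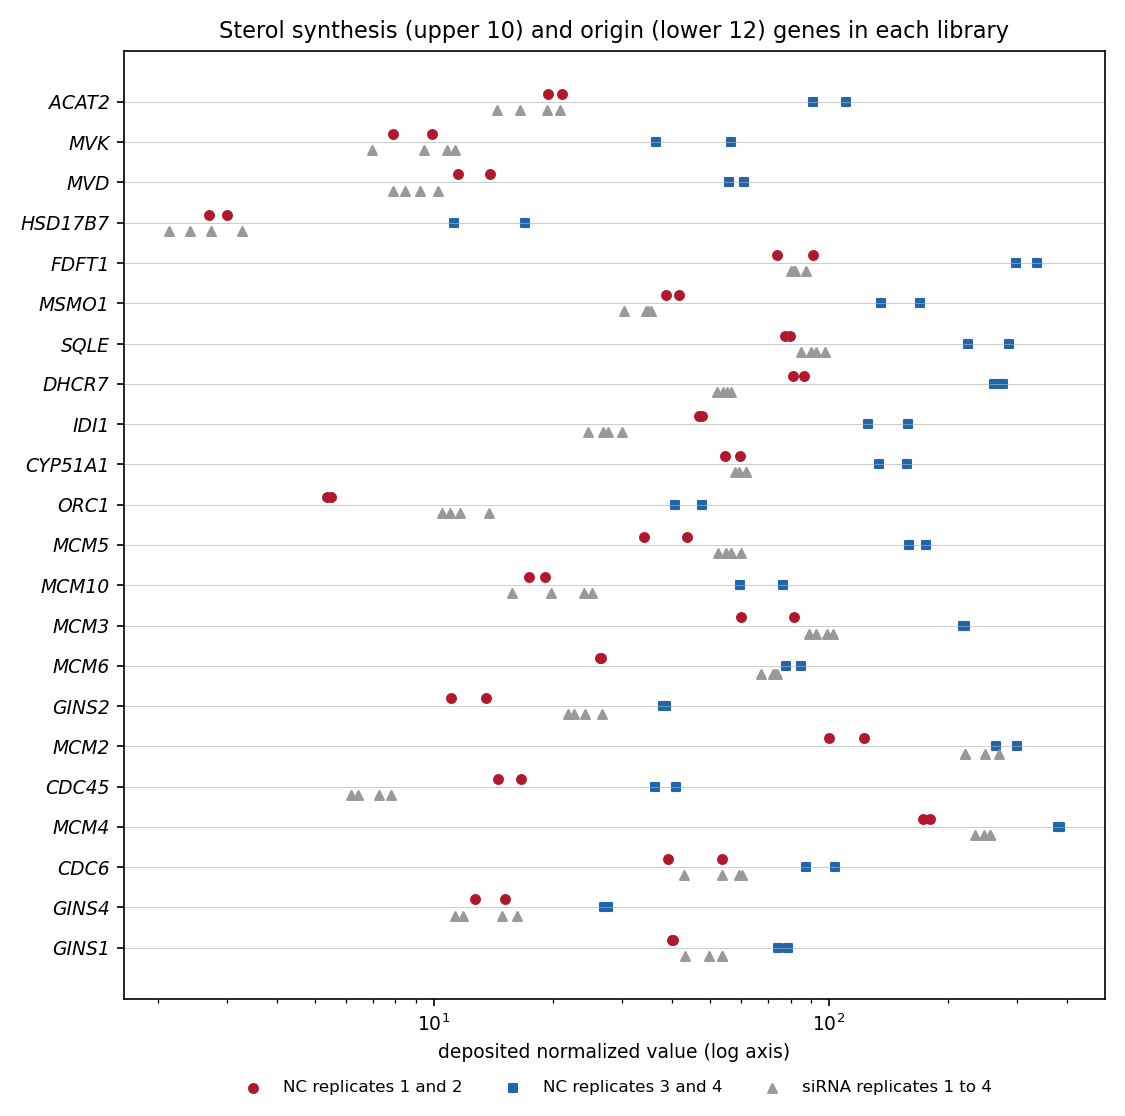
Deposited normalized value (log axis) of the 10 sterol synthesis genes (upper rows) and the 12 origin licensing and firing genes (lower rows) with the most negative difference between the NC pairs, in each library. NC-1 and NC-2 lie to the left of NC-3 and NC-4 in every row; the siRNA libraries sit with NC-1 and NC-2 for the sterol genes and vary for the origin genes, from below both pairs for CDC45 to near NC-3 and NC-4 for MCM2.

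Replication genes were lower as well. Of 52 members of the G1/S list, 49 were lower in both NC-1 and NC-2 than in NC-3 and NC-4, against 37.6% of all genes. Of the 52, 28 were apart lower and 0 higher, against 5.5% and 6.57% of all genes, and the median was -1.03. Among origin genes ORC1, a subunit of the origin recognition complex, was at 5.496 and 5.38 in NC-1 and NC-2, against 47.6 and 40.9 in NC-3 and NC-4 (8.14-fold lower). CDC45, part of the replicative helicase at chromosome 22 from 19479459 to 19520612 on the plus strand, was at 14.5 and 16.7 in NC-1 and NC-2, against 41.1 and 36.4 in NC-3 and NC-4, and at 6.17 to 7.78 in the siRNA libraries, below both pairs. The helicase ring genes were unequal: MCM5 was at 43.8 and 34.1 in NC-1 and NC-2, against 159.8 and 176 in NC-3 and NC-4, while MCM7, whose product sits in the same ring, was at 569 and 515 in NC-1 and NC-2, against 865 and 865 in NC-3 and NC-4. Their log2 differences were -2.09 and -0.67. Those of MCM3, MCM6, MCM2 and MCM4 lay between, at -1.64, -1.58, -1.34 and -1.11. MCM10, which helps the helicase start, was at 19.1 and 17.4 in NC-1 and NC-2, against 76.6 and 59.4 in NC-3 and NC-4. GINS2, of the GINS complex, was at 13.6 and 11.03 in NC-1 and NC-2, against 38.1 and 38.6 in NC-3 and NC-4. CDC6, the licensing factor, was at 39.1 and 53.6 in NC-1 and NC-2, against 104 and 87.8 in NC-3 and NC-4. GINS3, of the same complex, had the opposite sign, at 49.3 and 49.4 in NC-1 and NC-2 against 38.6 and 36.97 in NC-3 and NC-4. ORC6 was at 80.1 and 83.7 in NC-1 and NC-2 against 78.2 and 64.2 in NC-3 and NC-4. Neither of these was apart. CDC6 had a difference of -0.82 without NC-1 and -0.92 without NC-3.

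All 17 polymerase and clamp genes were lower and 11 were apart. POLA2, of the primase complex, was at 11.7 and 7.26 in NC-1 and NC-2, against 39.1 and 50.1 in NC-3 and NC-4. PRIM1, a primase subunit, was at 8.28 and 8.31 in NC-1 and NC-2, against 30.8 and 28.8 in NC-3 and NC-4. POLD1, the catalytic subunit of polymerase delta, was at 28.6 and 28.9 in NC-1 and NC-2, against 75.3 and 84.9 in NC-3 and NC-4. PCNA, the sliding clamp, was at 85.2 and 69.3 in NC-1 and NC-2, against 182 and 170.5 in NC-3 and NC-4. The pairs did not overlap for any of the 17. Among control genes E2F2 was at 2.47 and 4.17 in NC-1 and NC-2, against 17.5 and 16.9 in NC-3 and NC-4. E2F8 was at 3.21 and 2.42 in NC-1 and NC-2, against 12.96 and 10.7 in NC-3 and NC-4. E2F1 was at 23.5 and 17.6 in NC-1 and NC-2, against 53.2 and 56.4 in NC-3 and NC-4. E2F1 and E2F2 activate the program and E2F8 represses it, so activators and repressor were lower together. UHRF1, which carries DNA methylation through replication, was at 56.1 and 54.6 in NC-1 and NC-2, against 204 and 221 in NC-3 and NC-4. The G1 cyclin gene CCNE2 was at 7.05 and 6.24 in NC-1 and NC-2 against 17.2 and 12.8 in NC-3 and NC-4, with differences of -0.98 without NC-2 and -0.85 without NC-3. CCNE1, its homologue, was at 13.9 and 17.5 in NC-1 and NC-2 against 27.3 and 18.3 in NC-3 and NC-4. In nucleotide supply RRM2 was at 38.1 and 37.4 in NC-1 and NC-2, against 106 and 92.01 in NC-3 and NC-4. TYMS, as above, was lower. TK1, thymidine kinase, showed no separation, at 188 and 185 in NC-1 and NC-2 against 179 and 186 in NC-3 and NC-4. DUT, which removes dUTP, differed by only -0.09. Replication-dependent histone genes, most of which lack poly(A) tails, had 7 measured members of 12 and none apart.

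Mitotic genes differed less than replication genes. In the G2/M list 35 of 44 members were lower in both NC-1 and NC-2, against 37.6% of all genes. Of the 44, 9 were apart lower and 1 higher, against 5.5% and 6.57% of all genes, and the median was -0.57. KIF20A, a kinesin of the midzone, was at 19.9 and 18.6 in NC-1 and NC-2, against 84.6 and 74.6 in NC-3 and NC-4. BUB1, a checkpoint kinase, was at 39.2 and 45.8 in NC-1 and NC-2, against 123 and 109 in NC-3 and NC-4. DLGAP5 was at 24.9 and 27.1 in NC-1 and NC-2, against 76.5 and 68.3 in NC-3 and NC-4. CDC20, the activator of the anaphase complex, was at 59.6 and 68.5 in NC-1 and NC-2, against 161 and 139 in NC-3 and NC-4. MKI67, the proliferation antigen Ki-67, was at 225 and 249 in NC-1 and NC-2, against 499 and 463 in NC-3 and NC-4. TOP2A, a topoisomerase that untangles chromosomes, was at 224 and 245 in NC-1 and NC-2, against 490.5 and 471 in NC-3 and NC-4. Both lay close to the 2-fold threshold and fell under it without NC-1, at -0.95 for MKI67 and -0.97 for TOP2A, and for MKI67 also without NC-3, at -0.96. CCNB1, the mitotic cyclin, was at 93.3 and 105 in NC-1 and NC-2, against 199 and 176 in NC-3 and NC-4. CDK1 was at 103 and 135 in NC-1 and NC-2 against 155 and 127 in NC-3 and NC-4, with overlap. WEE1, the kinase that holds CDK1 inactive, was the member apart on the higher side, at 88.8 and 85.3 in NC-1 and NC-2, against 36.1 and 45.7 in NC-3 and NC-4, with a difference of 0.91 without NC-3. In the siRNA libraries the G2/M level, -0.71 to -0.51, lay below both pairs (-0.36 and -0.33 in NC-1 and NC-2, 0.33 and 0.28 in NC-3 and NC-4). For replication genes the siRNA level, -0.38 to -0.13, lay between them.

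Inhibitors and cyclins of G1 went in both directions. Of 14 measured members, 2 were apart higher and 1 lower, against 6.57% and 5.5% of all genes, and 5 had overlapping pair values. The median of 0.19 was 0.02 with library totals and 0.04 without NC-3. CDKN1A, the inhibitor p21, was at 154 and 351 in NC-1 and NC-2, against 59.7 and 17.3 in NC-3 and NC-4. CDKN2B, the inhibitor p15, was at 75.3 and 119.6 in NC-1 and NC-2, against 27.3 and 12.5 in NC-3 and NC-4. CDKN2C, described above, was lower by 3.01 on the log2 scale, the second largest difference of any gene on that side. CDKN1B (77.1 and 83.3 in NC-1 and NC-2 against 66.7 and 73.5 in NC-3 and NC-4), CDK4 (449 and 407 in NC-1 and NC-2 against 358 and 388 in NC-3 and NC-4) and CCND1 (214 and 309.7 in NC-1 and NC-2 against 217 and 176 in NC-3 and NC-4) differed by at most 0.40. CDKN1A and CDKN2B were spread within the pairs, with NC-2 above NC-1 and NC-3 above NC-4 for both.

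Transcripts of the mitochondrial genome were higher in NC-1 and NC-2. All 13 were apart, against 6.57% of all genes apart higher, with differences of 1.22 to 1.98 and a median of 1.5. MT-ND6, the one subunit encoded on the light strand, had the largest, at 859 and 785 in NC-1 and NC-2, against 185 and 232 in NC-3 and NC-4. MT-CYB, of complex III, was at 2996 and 2958 in NC-1 and NC-2, against 761 and 799 in NC-3 and NC-4. MT-ND5 was at 2916 and 2923 in NC-1 and NC-2, against 684 and 919 in NC-3 and NC-4. MT-ATP6, of ATP synthase, was at 5622 and 5438 in NC-1 and NC-2, against 1637 and 1665 in NC-3 and NC-4. MT-CO1, first in its share of reads over the 8 libraries together but below MET in NC-2, NC-3 and NC-4, was at 11301 and 11476 in NC-1 and NC-2, against 4560.1 and 5087 in NC-3 and NC-4, and at 15051 to 19192 in the siRNA libraries, above both pairs. MT-ND3 differed least, at 313 and 384 in NC-1 and NC-2, against 121 and 181 in NC-3 and NC-4, and its difference was 0.93 without NC-3. Together they took 5.32% and 5.01% of reads in NC-1 and NC-2, 1.96% and 2.19% in NC-3 and NC-4, and 4.39% to 5.59% in the siRNA libraries. Gene by gene, the siRNA mean lay between the pairs for 11 of the 13 transcripts and above both for 2. The mitochondrial share is also used as a measure of library quality, and its part in the other differences was not tested.

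Nuclear genes for the same organelle did not share this direction. Of 56 nuclear respiratory chain genes, 0 were apart in either direction, the median was -0.08, and the widest differences were -0.85 and 0.40. Mitochondrial ribosome genes had 0 of 32 apart higher and 1 lower, against 6.57% and 5.5% of all genes, with a median of -0.41, and 22 were lower in both libraries, against 37.6% of all genes. In the machinery that reads and processes the mitochondrial genome, POLRMT, its RNA polymerase, was lower, at 40.9 and 39.8 in NC-1 and NC-2, against 83.8 and 87.8 in NC-3 and NC-4. TFAM, which packs the DNA, was at 78.7 and 98.9 in NC-1 and NC-2 against 87.9 and 74.1 in NC-3 and NC-4. LRPPRC, which stabilizes its mRNAs, was at 309 and 263 in NC-1 and NC-2 against 334 and 343 in NC-3 and NC-4. Among the regulators MYC was higher, at 497 and 548 in NC-1 and NC-2, against 133 and 151 in NC-3 and NC-4. The coactivator gene PPARGC1B was lower, at 1.31 and 1.72 in NC-1 and NC-2 against 3.79 and 5.24 in NC-3 and NC-4, with a difference of -0.93 without NC-4. Of the mitochondrial chaperones HSPA9 was higher, at 1057 and 1115 in NC-1 and NC-2, against 509 and 468 in NC-3 and NC-4. HSPE1, a co-chaperonin, was lower, at 52.4 and 59.1 in NC-1 and NC-2, against 106 and 128 in NC-3 and NC-4, with differences of -0.97 without NC-1 and -0.92 without NC-4.

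ERK response genes were higher in NC-1 and NC-2 but with a wide spread within the pairs. Of 48 measured members of 51, 26 were apart higher and 1 lower, against 6.57% and 5.5% of all genes. The median was 1.22. The list's level was 0.30 and 0.85 in NC-1 and NC-2, -0.34 and -0.86 in NC-3 and NC-4, and 0.06 to 0.29 in the siRNA libraries. Transcription factors had the largest median, 1.83, and 13 of 18 were apart higher. FOS, of the AP-1 dimer, was at 113 and 60.4 in NC-1 and NC-2, against 5.42 and 4.85 in NC-3 and NC-4. EGR1, a zinc finger factor, was at 234 and 166 in NC-1 and NC-2, against 23.8 and 19.7 in NC-3 and NC-4. KLF6, a zinc finger factor, was at 577 and 610.2 in NC-1 and NC-2, against 48.8 and 56.4 in NC-3 and NC-4. MAFF, a small Maf protein, was at 114 and 131 in NC-1 and NC-2, against 13.3 and 10.6 in NC-3 and NC-4. These 4 are early response factors, and none overlapped between the pairs. JUN, a partner of FOS, was at 507 and 571 in NC-1 and NC-2, against 135 and 124 in NC-3 and NC-4. FOSL1, a later AP-1 member, was at 309 and 447 in NC-1 and NC-2, against 158 and 79.2 in NC-3 and NC-4. For FOS and EGR1 the siRNA libraries were close to NC-3 and NC-4, at 8.32 to 11.3 and 33.1 to 40.5, whereas for KLF6 and MYC they were nearer to NC-1 and NC-2, at 361 to 386 and 606 to 659. ETV1, an ETS factor, was the member apart on the lower side, at 2.29 and 4.197 in NC-1 and NC-2, against 15.1 and 8.52 in NC-3 and NC-4.

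The feedback arm was uneven. DUSP1, a nuclear MAP kinase phosphatase induced by many stresses, was at 139 and 244 in NC-1 and NC-2, against 10.7 and 7.38 in NC-3 and NC-4. DUSP5, which acts on nuclear ERK, was at 482 and 880.3 in NC-1 and NC-2, against 156 and 95.7 in NC-3 and NC-4. DUSP6, the cytoplasmic ERK phosphatase widely used as a readout of the pathway, was at 159 and 278 in NC-1 and NC-2, against 220.4 and 122 in NC-3 and NC-4, with overlap. DUSP4, of the same family, was at 137 and 176 in NC-1 and NC-2, against 173 and 135 in NC-3 and NC-4, also with overlap. The difference of DUSP6 was -0.05 without NC-2 and -0.07 without NC-4, the opposite sign of its value over all 4 libraries, 0.36. SPRY2, a Sprouty adaptor, was at 28.6 and 61.3 in NC-1 and NC-2, against 16.9 and 9.67 in NC-3 and NC-4. SPRY4, of the same family, was at 29.4 and 54.03 in NC-1 and NC-2, against 26.9 and 19.4 in NC-3 and NC-4. SPRED1, a related adaptor, had overlapping values at 61.1 and 95.2 in NC-1 and NC-2, against 122 and 90.6 in NC-3 and NC-4. Among ligands AREG was at 181 and 227 in NC-1 and NC-2, against 19.98 and 9.01 in NC-3 and NC-4. EREG, like AREG an EGF receptor ligand, was at 309 and 537 in NC-1 and NC-2, against 202 and 60.5 in NC-3 and NC-4. LIF, a cytokine, was at 73.6 and 148 in NC-1 and NC-2, against 46.5 and 26.8 in NC-3 and NC-4. The difference of EREG was 1.01 without NC-4. Each of these 3 ligands was higher in NC-2 than in NC-1 and in NC-3 than in NC-4. The receptor gene EPHA2 was at 263 and 481 in NC-1 and NC-2, against 201 and 117 in NC-3 and NC-4, and its difference was 0.77 without NC-2 and 0.82 without NC-4. UPP1, a uridine phosphorylase, was at 184 and 203 in NC-1 and NC-2, against 50.4 and 49.6 in NC-3 and NC-4. Members with the largest differences, ATF3, DUSP1 and AREG among them, are also induced by stress pathways, and ATF3 is on the amino acid stress list too.

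Within each pair the ERK genes pointed to a second pattern that runs across the pairs. Of the 48 members, 37 were higher in NC-2 than in NC-1, 38 higher in NC-3 than in NC-4, and 32 both. The pattern was not particular to ERK genes. Both held for 22 of 28 proteasome, 17 of 23 unfolded protein response and 29 of 44 G2/M genes, but for 1 of 13 mitochondrially encoded genes. The share of all genes with both was not counted, so these counts do not show that any list differs from genes in general. PLAUR, the urokinase receptor, showed this second pattern without the first. Its values were 9.15 and 44.2 in NC-1 and NC-2, against 31.4 and 9.13 in NC-3 and NC-4. Over all 11812 genes, the difference of NC-1 minus NC-2 and that of NC-3 minus NC-4, which share no library, had a Spearman correlation of -0.596 and a Pearson correlation of -0.52. The same measure for siRNA replicate 1 minus 2 and 3 minus 4 was 0.0274. With trends of GC content and transcript length removed it was -0.586 over 11800 genes, and over the 2232 genes with an NC mean of at least 100 it was -0.691. The points are genes of 4 libraries and not independent, so these are descriptions of the libraries.

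**Figure D4:**
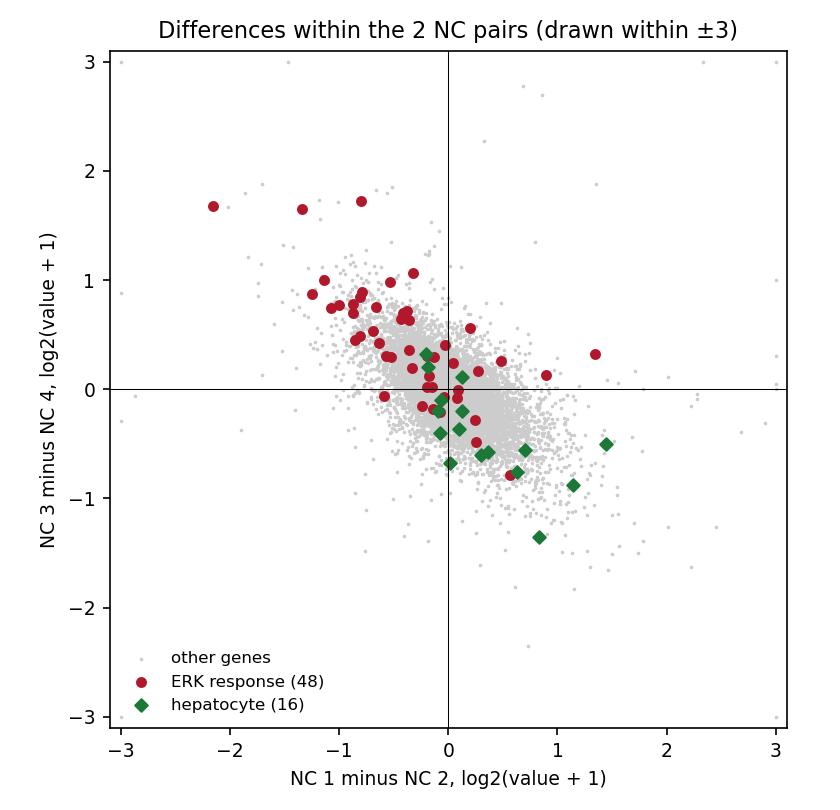
Each point is a gene, placed by its difference within the first NC pair (NC-1 minus NC-2, horizontal) and within the second (NC-3 minus NC-4, vertical), both on log2(value + 1), with values past 3 in size drawn at 3. The cloud slopes downward (Spearman -0.596), ERK response genes (48) lie mostly in the upper left, and hepatocyte genes (16) mostly in the lower right.

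A difference of at least 2-fold in both pairs was seen for 54 genes, and in 49 the signs were opposite. Of these 49, 18 were higher in NC-2 and NC-3, and 31 were higher in NC-1 and NC-4. ITGA2, an integrin that binds collagen, was at 33.4, 138, 95.7 and 29.4 in NC-1 to NC-4. CDKN1A and PLAT, a plasminogen activator, were also among the 18. On the other side, PEG10, an imprinted gene, was at 67.2, 13.6, 37.7 and 118 in NC-1 to NC-4, ERBB3, a receptor tyrosine kinase, at 30.4, 9.61, 20.8 and 58.02, and CREB3L3, a liver transcription factor, at 15.2, 3.98, 18.6 and 44.9. The difference of CREB3L3 between the pairs was -0.89 without NC-2, and that of PEG10 was 0.0044 without NC-2. These genes were chosen after their values were seen. Hepatocyte genes leaned the same way, with medians of 0.13 for NC-1 minus NC-2 and -0.45 for NC-3 minus NC-4. The fibrinogen gene FGA was at 41.5 and 14.6 in NC-1 and NC-2 against 26.2 and 37.4 in NC-3 and NC-4. The median of NC-1 minus NC-2 also went from -0.08 in the bin of genes lowest in GC content to 0.04 in the highest of 5 bins, and that of NC-3 minus NC-4 from 0.10 to -0.08.

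Other stress lists differed in parts, and their counts stand beside 6.57% of all genes apart higher and 5.5% lower. The unfolded protein response list had 5 of 23 apart higher and 1 lower with a median of 0.02, which was -0.14 without NC-2 or without NC-4. HERPUD1, of ER-associated degradation, was at 87.00 and 109.6 in NC-1 and NC-2, against 16.2 and 16.5 in NC-3 and NC-4. ERN1, the sensor IRE1, was at 80.7 and 99.2 in NC-1 and NC-2, against 21.7 and 19.1 in NC-3 and NC-4. XBP1 was at 231 and 304 in NC-1 and NC-2, against 84.5 and 102 in NC-3 and NC-4. HSPA5, the chaperone BiP, was at 1228 and 1226 in NC-1 and NC-2, against 603 and 446 in NC-3 and NC-4. SDF2L1, of the ER folding machinery, was the member apart on the lower side, at 7.63 and 7.67 in NC-1 and NC-2 against 21.4 and 15.8 in NC-3 and NC-4, with a difference of -0.96 without NC-3. PDIA4, a folding enzyme, was at 129 and 152 in NC-1 and NC-2 against 305 and 236 in NC-3 and NC-4 and not apart. CALR, the chaperone calreticulin, was at 460.5 and 469 in NC-1 and NC-2 against 721 and 679.8 in NC-3 and NC-4 and not apart. Heat shock genes had 6 of 20 apart lower and none higher. HSPA8, the constitutive HSP70, was at 759 and 636 in NC-1 and NC-2, against 1811 and 1880.1 in NC-3 and NC-4. HSPH1 was at 62.6 and 64.3 in NC-1 and NC-2, against 167 and 152 in NC-3 and NC-4. HSP90AA1 was at 499.6 and 553 in NC-1 and NC-2, against 1463 and 908 in NC-3 and NC-4, with a difference of -0.79 without NC-3, while HSF1, the gene of their factor, was at 150.0 and 148 in NC-1 and NC-2 against 115 and 114 in NC-3 and NC-4. HSPA1A and HSPA1B, near-identical copies whose reads may be shared, are uncertain: HSPA1A was at 125 and 112 in NC-1 and NC-2 against 237 and 321 in NC-3 and NC-4. HSPA1B was at 129.7 and 112 in NC-1 and NC-2 against 224 and 302 in NC-3 and NC-4. Without NC-4 their differences were -0.99 and -0.89, and without NC-2 that of HSPA1B was just under 2-fold.

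Of 22 p53 targets, 10 were apart higher and 1 lower, with a median of 0.66. Over all genes 6.57% were apart higher and 5.5% lower, and the counts of the lists that follow stand beside these shares too. PMAIP1 (NOXA) was at 81.9 and 98.4 in NC-1 and NC-2, against 24.9 and 15.7 in NC-3 and NC-4, BBC3 (PUMA) at 17.5 and 14.4 in NC-1 and NC-2, against 2.54 and 5.66 in NC-3 and NC-4. BTG2 was at 27.5 and 16.4 in NC-1 and NC-2, against 5.48 and 7.98 in NC-3 and NC-4. MDM2 (62.9 and 104 in NC-1 and NC-2 against 56.97 and 34.9 in NC-3 and NC-4) and BAX (91.7 and 88.4 in NC-1 and NC-2 against 100.1 and 91.2 in NC-3 and NC-4) were not apart, and CDKN1A, GDF15 and TNFRSF10B stand on other lists too. In the NRF2 list 5 of 27 were apart higher and 1 lower. HMOX1, heme oxygenase, was at 855 and 698 in NC-1 and NC-2, against 249 and 341 in NC-3 and NC-4. GPX2, a glutathione peroxidase and the lower member, was at 212 and 131 in NC-1 and NC-2, against 443 and 454 in NC-3 and NC-4. NQO1, the usual marker of NRF2, was at 1730.2 and 1596 in NC-1 and NC-2 against 1676 and 1835 in NC-3 and NC-4. In the NF-kB list 6 of 20 were apart higher, led by the chemokine gene CXCL2 at 22.5 and 20.7 in NC-1 and NC-2, against 1.54 and 1.58 in NC-3 and NC-4, with NFKBIA at 33.5 and 35.1 in NC-1 and NC-2 against 29.9 and 31.8 in NC-3 and NC-4. In the YAP list 6 of 18 were apart higher, among them genes of matricellular proteins. CYR61 was at 50.99 and 35.3 in NC-1 and NC-2, against 9.84 and 13.05 in NC-3 and NC-4. CTGF was at 50.3 and 40.8 in NC-1 and NC-2, against 20.7 and 14.5 in NC-3 and NC-4. TGF-beta genes had 3 of 20 apart higher and 2 lower. BAMBI, a decoy receptor, was at 104 and 99.5 in NC-1 and NC-2 against 42.7 and 55.7 in NC-3 and NC-4, with a difference of 0.86 without NC-3. SMAD6, an inhibitory SMAD, was at 5.97 and 3.44 in NC-1 and NC-2 against 13.9 and 12.1 in NC-3 and NC-4. Interferon genes leaned lower, with 5 of 19 apart lower and 1 higher. The OAS genes make the activators of RNase L. OAS1 was at 25.4 and 22.7 in NC-1 and NC-2, against 85.7 and 101.2 in NC-3 and NC-4. OAS2 was at 4.26 and 5.52 in NC-1 and NC-2 against 20.2 and 20.7 in NC-3 and NC-4. OAS3 was at 57.6 and 52.9 in NC-1 and NC-2 against 188 and 214 in NC-3 and NC-4. IRF1, a transcription factor and the member apart on the higher side, was at 45.3 and 49.99 in NC-1 and NC-2 against 20.9 and 18.8 in NC-3 and NC-4.

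In the lysosome and autophagy list 3 of 26 were apart, all higher, a share near the 12.1% of all genes apart in either direction. MAP1LC3B, the LC3 gene, was at 665 and 833 in NC-1 and NC-2, against 105 and 114 in NC-3 and NC-4. GABARAPL1, of the same family, was at 245 and 239.6 in NC-1 and NC-2, against 27.9 and 41.6 in NC-3 and NC-4. ULK1, the initiating kinase, was at 262 and 303 in NC-1 and NC-2, against 49.5 and 68.2 in NC-3 and NC-4. CTSD, a lysosomal protease, was at 756 and 808 in NC-1 and NC-2 against 725 and 811 in NC-3 and NC-4 and not apart. LAMP1, a lysosomal membrane protein, was at 122 and 107 in NC-1 and NC-2 against 93.5 and 122 in NC-3 and NC-4 and not apart. In the glycolysis and hypoxia list 7 of 27 were apart higher and 1 lower, against 6.57% and 5.5% of all genes. NDRG1, a stress-responsive gene, was at 264 and 463 in NC-1 and NC-2 against 96.4 and 82.9 in NC-3 and NC-4. TXNIP, which lowers glucose uptake, was at 28.9 and 33.1 in NC-1 and NC-2 against 4.55 and 13.6 in NC-3 and NC-4, and its difference was 1.13 without NC-3. The glucose carrier SLC2A1 was at 365 and 303 in NC-1 and NC-2 against 128 and 142 in NC-3 and NC-4. Of the glycolytic enzyme genes PKM, ALDOA and PGAM1, chosen after their values were seen, none was apart. PKM, pyruvate kinase, was at 2467 and 2372 in NC-1 and NC-2 against 3970.5 and 3702 in NC-3 and NC-4. ALDOA, an aldolase, was at 725 and 784 in NC-1 and NC-2 against 1301 and 1198 in NC-3 and NC-4. PGAM1, a mutase, was at 219.5 and 232 in NC-1 and NC-2 against 429 and 415 in NC-3 and NC-4. Of 17 axon guidance genes, 4 were apart higher and 1 lower, with the netrin gene NTN4 at 526 and 599.9 in NC-1 and NC-2, against 169 and 139 in NC-3 and NC-4 beside UNC5B. Ribosomal protein genes had none of 41 apart, with a median of 0.11 (-0.07 when scaled by library totals), ribosome biogenesis genes none of 20, and proteasome genes 1 of 28.

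**Figure D5:**
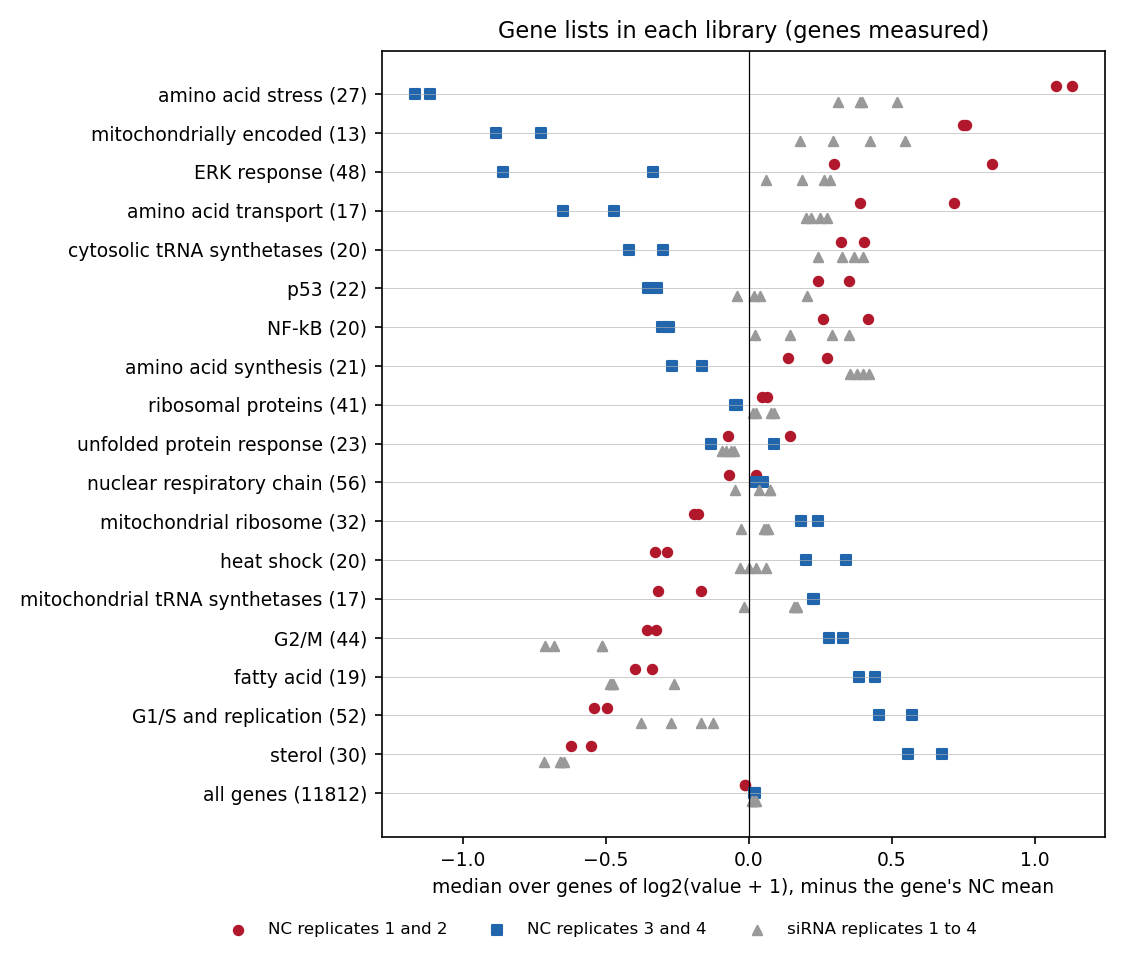
Median over each list of log2(value + 1) minus the gene's mean over the 4 NC libraries (horizontal), 1 row per list for the lists described at most length and for all genes, with the number of measured genes, and 1 point per library. Amino acid stress (1.07 and 1.13 in NC-1 and NC-2, -1.12 and -1.17 in NC-3 and NC-4) and sterol (-0.55 and -0.62, against 0.68 and 0.56) bracket the rows, while ribosomal protein and nuclear respiratory chain genes stay near 0.

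Markers of liver were compared in the same way. Of 23 hepatocyte genes 16 were measured, 1 apart higher and 4 lower, against 6.57% and 5.5% of all genes. Their differences ran from -1.535 to 1.181, and the members described here do not include the one apart higher. KRT8, an epithelial keratin, was at 2097 and 1918 in NC-1 and NC-2, against 4355 and 4033 in NC-3 and NC-4, and it overlaps KRT18 on the opposite strand. Without NC-2 its difference was just under 2-fold. HNF4A, a factor of hepatocyte identity, was at 33.5 and 31.2 in NC-1 and NC-2 against 26.5 and 34.3 in NC-3 and NC-4. ALB, albumin, was low throughout, at 8.92 and 9.44 in NC-1 and NC-2 against 7.801 and 10.6 in NC-3 and NC-4. AFP, the fetal counterpart of albumin, was at 2.89 and 3.15 in NC-1 and NC-2 against 4.16 and 4.92 in NC-3 and NC-4. SERPINA1, alpha-1 antitrypsin, was under 1 in every NC library. The summed level of the 16 genes, most of it KRT8 and KRT18, was 3223 and 3093 in NC-1 and NC-2, 5763 and 5291 in NC-3 and NC-4, and 2799 to 2858 in the siRNA libraries. APOB was at 4.87 and 2.61 in NC-1 and NC-2, against 9.99 and 15.2 in NC-3 and NC-4. Of 25 markers of fibroblasts, endothelium, leukocytes, erythroid and squamous cells, 4 were in the table. LUM, a fibroblast proteoglycan, was at 36.3 and 20.3 in NC-1 and NC-2 against 34.8 and 64.05 in NC-3 and NC-4. PECAM1, of endothelium, was at 11.5 and 7.53 in NC-1 and NC-2 against 13.05 and 19.8 in NC-3 and NC-4. CD68, of macrophages, was at 52.3 and 86.6 in NC-1 and NC-2 against 90.95 and 62.6 in NC-3 and NC-4. TP63, of squamous cells, was at 0.263 and 0.457 in NC-1 and NC-2 against 1.43 and 1.403 in NC-3 and NC-4. None of the 4 was apart. The defining genes COL1A1, CDH5, PTPRC, HBB and KRT5 are not analysed here.

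Median differences varied little with gene properties, and shares of genes apart varied more. Over 23 chromosomes with at least 100 genes, the median difference ran from -0.10 to 0.08, against -0.47 to 0.32 for the difference of all siRNA from all NC libraries. Over 5 equal bins of genes by GC content or transcript length the median ran from -0.10 to 0.07. The share of genes apart lower ran from 1.75% to 7.44% over chromosomes and that of genes apart higher from 4.84% to 9.82%. Over the length bins the share apart lower ran from 4.11% to 6.95% and the share apart higher from 5.59% to 7.59%. In the bin lowest in GC content 5.72% were apart higher and 3.86% lower, and in the highest 7.20% and 6.36%. At the threshold, PACSIN3, ERMP1 and RARG were just inside at -1.0 each, and CHAF1B, SHISA2 and COL7A1 just outside. MET and FTL, which with MT-CO1 took the largest shares of reads over the 8 libraries together, did not differ in this way. MET, the HGF receptor gene, was at 10238 and 13367 in NC-1 and NC-2 against 11220.0 and 7571 in NC-3 and NC-4. FTL, ferritin light chain, was at 7178 and 7269.7 in NC-1 and NC-2 against 7286 and 8335 in NC-3 and NC-4.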

How the data were processed

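Poly(A) RNA of HCCLM3 cells was sequenced in 8 libraries (paired-end reads of 150 bases, per the labels' protocols). The submitters' processing notes list HISAT2, HTSeq 0.12.4, FastQC, Trimmomatic, edgeR, DESeq2 and the build hg38. What each did, its settings and the use of strand: not given in the sources used here. The authors deposited 1 table of normalized signal per gene, gene read numbers divided by a size factor per library. These factors matched the library sizes that TMM gave on the recovered reads. Multiples of the smallest step gave whole reads within 0.02 reads for 100% of values, with the smallest value taken as 2 reads in 4 columns. Every listed gene is above 1 in at least 3 libraries.

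The filter kept genes that reached 1 in 4 or more of the 8 libraries (11812 of 11818), and values were taken as log2(value + 1). NC replicates 1 and 2 were set against 3 and 4 with no test, because these values chose the pairs. No count test was run for the same reason. The pairs, gene lists and members were chosen with earlier results of these data known. Genes named are the 4 given markers, the 12 largest differences on each side among genes with an NC mean of at least 5 and no overlap, up to 6 members a list plus up to 2 of the other direction, genes under 1 in 1 pair and at least 10 in the other, the 3 most abundant genes, and members needed for a pathway; some genes that this rule names are not reported here. Positions and overlaps come from GENCODE 29 (GRCh38) and promoters from RefSeq (GRCh38.p14). Alternatives were the pseudocount, the filter, TMM of edgeR 4.0.16 and size factors of DESeq2 1.42.0 on recovered reads, library totals, totals without mitochondrially encoded genes, removal of GC and length trends, other thresholds, genes free of overlap (added after the data were seen), and leaving out each NC library. Python 3.11.15, pandas 2.3.3, numpy 2.4.6, matplotlib 3.10.9 and R 4.3.3 were used. The calculations were tested on simulated data.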

Additional observations from a re-analysis of the deposited data

Results flagged for a closer look

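In 4 cases 1 siRNA library lay far from the other 3 in the level of a gene list, where the level is the median of log2(value + 1) centred on each gene's NC mean. For mitochondrial tRNA synthetases siRNA replicate 3 was at -0.017, with the others at 0.159 to 0.168. For the fatty acid list siRNA replicate 2 was at -0.262, with the others at -0.486 to -0.477. For G1 inhibitors and cyclins siRNA replicate 1 was at 0.071, with the others at -0.240 to -0.189. For the mitochondrial ribosome siRNA replicate 4 was at -0.028, with the others at 0.051 to 0.066. Each case involves a different library. Of 82 groups screened 4 stood out in this way, and chance gives about 1 in 20. The 82 include groups of the 4 NC libraries. Where these split into 2 pairs, no single library can lie far from the rest, but some lists, such as the unfolded protein response, did not split so. How many groups could stand out was not counted, and the 4 cases are all siRNA groups.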

How the results depend on the processing

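No paired analysis was possible because NC-1 and NC-2 share no replicate number with NC-3 and NC-4. The median difference of all genes moved to -0.197 with library totals and -0.155 with totals that leave out mitochondrially encoded genes, and lay between -0.039 and -0.017 under the other alternatives. Counts of genes apart moved with the pseudocount of 5 (895 in either direction, 329 lower), with a threshold of 1.5-fold (3626, of which 1740 higher and 1886 lower) or 4-fold (159, of which 126 higher and 33 lower), and with library totals, where 566 were higher and 1021 lower. Totals without mitochondrially encoded genes gave 609 higher and 906 lower. Leaving out 1 NC library gave 1309 to 1763 genes apart. TMM on the recovered reads gave back the deposited scaling, so its counts and medians repeat the main ones and are no check on them.

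The amino acid stress median was 2.51 with a pseudocount of 0.1, 2.01 with 5, 2.03 with library totals, 2.07 without mitochondrially encoded genes in the total and 2.56 for members with no overlapping gene. With library totals, then without mitochondrially encoded genes in the total, the sterol median was -1.44 and -1.39, the G1/S median -1.20 and -1.16, the G2/M median -0.75 and -0.71 and the median of mitochondrially encoded genes 1.32 and 1.37. The last was 1.64 for members with no overlapping gene, and the G1/S median was -0.92 with a pseudocount of 5. Leaving out 1 NC library gave -1.25 to -1.05 for sterol, -1.12 to -0.98 for G1/S, -0.66 to -0.57 for G2/M, 0.95 to 1.43 for ERK and -0.114 to 0.0004 for nuclear respiratory chain genes. Medians near 0 changed sign: glycolysis and hypoxia was at 0.20 without overlapping genes, and with library totals TGF-beta was at -0.0043, axon guidance at -0.0023, ribosomal proteins at -0.066 and lysosome and autophagy at -0.057. Without mitochondrially encoded genes in the total, ribosomal proteins were at -0.020 and lysosome and autophagy at -0.011. The unfolded protein response median was at -0.157 with library totals, -0.111 without mitochondrially encoded genes in the total, -0.144 without NC-2 and -0.135 without NC-4. That of hepatocyte genes was at 0.0585 without NC-2 and 0.0648 without NC-4, and that of histones at 0.0006 without NC-3. CD68, the 1 leukocyte marker measured, was at 0.20 without NC-1 and 0.10 without NC-3. The cause of these moves was not tested. Of the 258 genes named, 185 were apart, and none of these 185 changed sign under the alternatives run for genes. This is no check, since the pair values of a gene apart do not overlap. Leaving out 1 library or changing the pseudocount therefore cannot change its sign. The scaling alternatives moved the median of all genes by far less than 2-fold. Of the named genes not apart, 17 changed sign, 15 of them without 1 NC library and 9 with another setting. The differences of these 17 had a median size of 0.117 and reached 1.11 (PEG10). Of the 185, 27 fell under 2-fold without 1 NC library, to 0.537 at the least (RARG). With 2 libraries a pair, the precision is limited by their number and not by depth.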
